A study of Homo sapiens with 6 samples.

Results

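The D-type cyclins, their kinases CDK4 and CDK6, the inhibitors of these kinases and the pocket protein gene RBL2 were followed as 10 genes of the 26485 entries of the deposited table. They were CCND2, CCND3, CDK4, CDK6, CDKN2A, CDKN2C, CDKN2D, CDKN1A, CDKN1B and RBL2, taken by name. Of these, 9 passed the low-count filter and were tested, and CDKN2A had no count in any library.

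D-type cyclins bind CDK4 or CDK6 early in the G1 phase of the cell cycle, and the active kinases phosphorylate the pocket proteins RB1, RBL1 and RBL2, which otherwise hold E2F target genes off. The INK4 proteins, among them those of CDKN2A, CDKN2C and CDKN2D, bind CDK4 and CDK6 themselves. The CIP/KIP proteins p21 (CDKN1A) and p27 (CDKN1B) bind cyclin and kinase together, inhibit CDK2, and also help to assemble cyclin D with CDK4. In precursor B cells CDK6 and cyclin D3 are known as the main pair of this module, and loss of CDKN2A is frequent in acute lymphoblastic leukemia.

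The cells were REH, an established human line from precursor B acute lymphoblastic leukemia that carries the ETV6-RUNX1 fusion. A first group was given 25 µM ML141, an inhibitor of the GTPase CDC42, for 24 h, and the other was given the solvent DMSO for 24 h, with 3 libraries per group from 3 independent experiments, and p-values measure the spread between these libraries. All libraries come from this single cell line, and only 1 dose and 1 time were measured. The comparison asks which transcripts differ between cells given ML141 and cells given DMSO.

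Total counts were 10436147 to 12308039 with ML141 and 8284299 to 10837224 with DMSO. Levels are given in CPM, counts scaled to a common library size (TMM), where 1 count stood for 0.0754 to 0.0926 CPM with ML141 and for 0.0964 to 0.1297 CPM with DMSO. CDC42 mRNA was at 201.5 ± 10.8 CPM with ML141 and 277.4 ± 2.50 CPM with DMSO (SD, n = 3 each). ML141 acts on the CDC42 protein, and 62.6% of the exon bases of CDC42 are shared with another annotated gene. Of 10 precursor B cell markers, 9 were tested and 8 were higher with ML141, against 26.7% of all genes tested. The list summed to 6856 to 7075 CPM with ML141 and to 4777 to 5254 CPM with DMSO. The T cell, erythroid and NK cell markers each summed to at most 0.9804 CPM with ML141 and 0.726 CPM with DMSO. The myeloid markers summed to 25.7 to 28.3 CPM with ML141 and to 41.2 to 42.1 CPM with DMSO, nearly all of it MPO, with LYZ and CD14 at no more than 9 counts in a library and CSF3R at 0. The part of these differences in the results below was not tested.

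With ML141 the CIP/KIP inhibitor genes CDKN1A and CDKN1B rose, and the kinase gene CDK4 and the INK4 gene CDKN2C fell. CDKN1A was 2.03-fold and CDKN1B 1.83-fold higher, CDK4 was 2.03-fold and CDKN2C 1.57-fold lower. The D-type cyclin genes, CDK6, CDKN2D and RBL2 did not pass the test, although CCND3 and CDKN2D did with the replicate number as a block, which made 6 changed members. By edgeR's quasi-likelihood test, adjusted over all 11454 genes tested, 4 of the 9 tested members changed (threshold 0.05), which is 44.4%, and the share over all genes was 54.4%. By direction 2 members were higher, against 26.7% of all genes, and 2 were lower, against 27.7% of all genes. Changed members were thus no more frequent than changed genes at large. The median log2 fold change of the 9 was -0.03, and that of all genes was 0.02. Every ML141 library lay outside the DMSO range in the 4 changed members but not in the other 5, against 61.2% of all genes with no such overlap. Of all genes 30.5% had every ML141 library above, as 2 members did, and 30.7% had every one below, as 2 members did. In RNA from bulk cells, fewer cells that express a gene and less RNA per cell cannot be told apart.

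**Figure D1:**
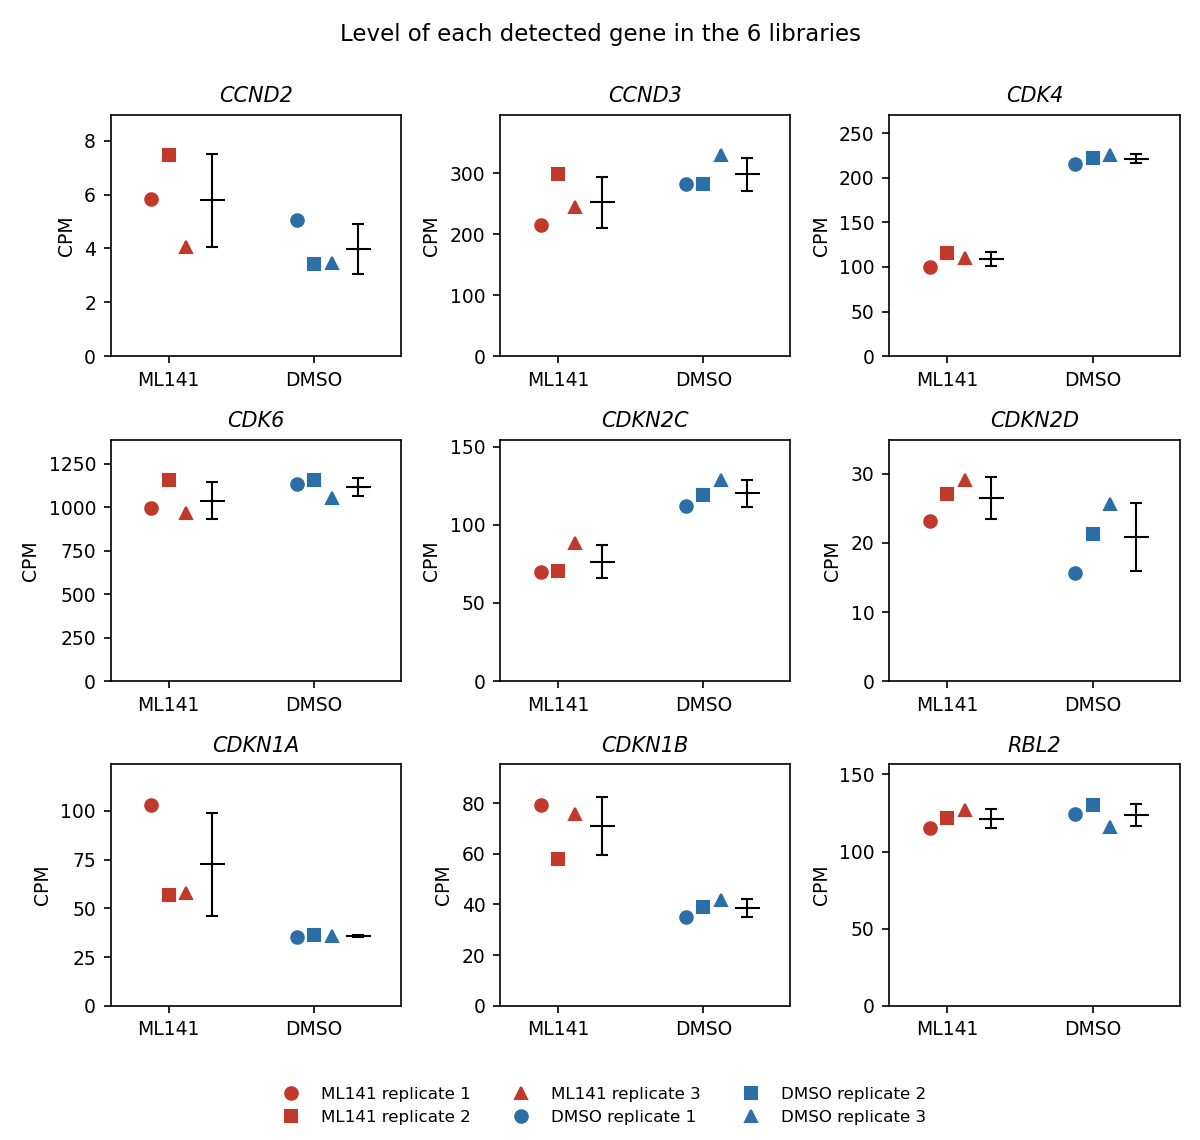
Level of each of the 9 detected genes in CPM (vertical axes, each from 0) in the 3 ML141 and 3 DMSO libraries. Symbols mark replicate numbers, and black bars are the mean and SD of each group. CDK4 and CDKN2C lie lower in every ML141 library than in any DMSO library, CDKN1A and CDKN1B lie higher in every one, and ML141 replicate 1 is at 103.2 CPM of CDKN1A, above the other 5 libraries.

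The sequence upstream of the start is shown for the 4 genes that changed, so that their letters can be set beside their values. Each is the 250 bases before an annotated start in RefSeq on GRCh38.p14, 5′ to 3′ on the gene's strand. Capitals mark CACGTG (the E-box), CCAAT (the NF-Y box) and GGGCGG (the GC box) on either strand. CDKN2C has other starts in the RefSeq set used here, and their windows are located in the paragraph after the sequences. The positions given below for CDK4, CDKN1A and CDKN1B reach upstream of their windows, so these genes have further annotated starts.
CDK4, chr12:57752311-57752560, minus strand: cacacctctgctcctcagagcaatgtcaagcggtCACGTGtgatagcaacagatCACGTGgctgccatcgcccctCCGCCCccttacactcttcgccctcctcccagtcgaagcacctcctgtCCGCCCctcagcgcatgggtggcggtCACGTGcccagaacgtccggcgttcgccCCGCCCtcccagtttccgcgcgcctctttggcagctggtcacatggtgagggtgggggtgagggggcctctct
CDKN2C, chr1:50969995-50970244, plus strand: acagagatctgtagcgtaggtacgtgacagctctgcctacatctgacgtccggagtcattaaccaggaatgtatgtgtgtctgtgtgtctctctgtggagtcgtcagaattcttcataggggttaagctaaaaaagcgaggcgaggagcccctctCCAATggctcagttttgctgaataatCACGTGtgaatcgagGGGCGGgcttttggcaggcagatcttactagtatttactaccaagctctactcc
CDKN1A, chr6:36678464-36678713, plus strand: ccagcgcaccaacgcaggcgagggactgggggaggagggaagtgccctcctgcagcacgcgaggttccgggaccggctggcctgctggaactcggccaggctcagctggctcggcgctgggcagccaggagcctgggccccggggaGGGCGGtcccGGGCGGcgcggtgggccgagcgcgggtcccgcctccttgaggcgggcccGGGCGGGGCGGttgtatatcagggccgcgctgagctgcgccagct
CDKN1B, chr12:12717118-12717367, plus strand: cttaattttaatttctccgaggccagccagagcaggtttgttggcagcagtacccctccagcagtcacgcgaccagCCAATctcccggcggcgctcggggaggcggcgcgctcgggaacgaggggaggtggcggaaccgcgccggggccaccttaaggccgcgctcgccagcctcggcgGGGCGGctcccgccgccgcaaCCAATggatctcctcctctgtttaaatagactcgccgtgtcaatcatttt

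RefSeq windows were matched for 9 of the 10 members, 16 windows in all, with none for CCND2 in the table used here. The CDK4 window holds CACGTG at 3 places, which begin 216, 196 and 101 bases before the start. CACGTG occurs in 6.34% of the 35116 windows of all genes, and among the members it was found in CDK4 and in 2 of the 3 windows of CDKN2C. The other CDKN2C window with this word is chr1:50960495-50960744. The remaining CDKN2C window, chr1:50968456-50968705, holds GGGCGG but neither CACGTG nor CCAAT. The CDKN1B window holds CCAAT at 2 places, 174 and 50 bases before the start. CCAAT was found in 6 of the 16 member windows, which belong to 5 members, and in 32% of all windows. GGGCGG occurs at 4 places in the CDKN1A window, a pair of which overlap. This word was found in 10 of the 16 member windows, which belong to 8 members, and in 42.6% of all windows. No window of a member held an E2F word (TTTCCCGC, TTTGGCGC, TTTGCCGC or TTTCGCGC, present in 2.79% of all windows), a CHR word (TTTGAA or TTCGAA, 14.3%), the FOXO word GTAAACA (2.98%) or the ATF4 word TGATGNAA (3.14%). Both strands were searched for each word. A match describes letters in these windows and no binding was measured.

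The D-type cyclins are the regulatory subunits of the kinases. CCND3 (chromosome 6, 41934933 to 42050357, minus strand, GRCh38) was at 215, 298 and 243.8 CPM with ML141 and at 282.1, 282.8 and 329.6 CPM with DMSO. ML141 replicate 2 lay between the DMSO values, and the other ML141 libraries lay below them. The change was -0.24 on the log2 scale (SE 0.115, edgeR adjusted p = 0.0946), with a 95% interval of -0.49 to 0.01. With the replicate block it was -0.25 (adjusted p = 0.024). Without ML141 replicate 2 it was -0.38 (adjusted p = 0.00707), and without ML141 replicate 1 it was -0.14 (adjusted p = 0.211). Its size depended on scaling, since it was -0.136 with upper-quartile factors (adjusted p = 0.392) and -0.066 with library totals (adjusted p = 0.669).

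CCND2 (chromosome 12, 4273772 to 4305350, plus strand) was a low transcript, with 63, 99 and 47 counts with ML141 and 39, 33 and 36 counts with DMSO. On the CPM scale this was 5.84, 7.47 and 4.04 with ML141 and 5.06, 3.42 and 3.47 with DMSO. Only ML141 replicate 3 fell within the DMSO range. On the log2 scale the change was 0.56 (SE 0.262, edgeR adjusted p = 0.0882), with a 95% interval of -0.01 to 1.13. It was 0.76 without ML141 replicate 3 (adjusted p = 0.0322) and 0.32 without ML141 replicate 2 (adjusted p = 0.323). Of the exon bases of CCND2, 15.3% are shared with AC008012.1 on the same strand. CCND1, the third D-type cyclin gene, had 4, 11 and 8 counts with ML141 and 2, 5 and 3 counts with DMSO and was not tested.

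CDK4 and CDK6 are the catalytic subunits. CDK4 (chromosome 12, 57747727 to 57756013, minus strand) was at 100, 116 and 110.1 CPM with ML141 and at 215.6, 222.4 and 225.4 CPM with DMSO. The values within each group lay close together, far apart from those of the other group. The log2 fold change was -1.02 (SE 0.082, edgeR adjusted p = 1.42e-06, lower in 3 of 3 ML141 libraries), which ranked 279 by p among all genes tested. It lay between -1.07 and -0.85 over 17 other ways of processing. Of the exon bases of CDK4, 51.9% overlap TSPAN31, a tetraspanin gene on the opposite strand, and strand is not recorded by the TruSeq RNA v2 kit. TSPAN31 itself was higher, at 46.4 ± 4.87 CPM with ML141 and 18.5 ± 2.78 CPM with DMSO, or 1.33 on the log2 scale (SE 0.134, edgeR adjusted p = 7.66e-06), so the neighbouring genes moved in opposite directions. How reads from the shared bases were assigned is not given in the sources used here.

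CDK6 (chromosome 7, 92604921 to 92836594, minus strand) was by counts the highest of the members, with 8737 to 15334 counts in a library. It was at 993.4, 1156 and 963.2 CPM with ML141 and at 1133, 1153 and 1054 CPM with DMSO. The ranges overlapped, with ML141 replicate 2 the highest library of all. Its log2 fold change was -0.10 (SE 0.089, edgeR adjusted p = 0.358), with a 95% interval of -0.30 to 0.09, which leaves out a change of the size seen in CDK4. Its sign depended on scaling, since it was 0.07 with library totals.

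**Figure D2:**
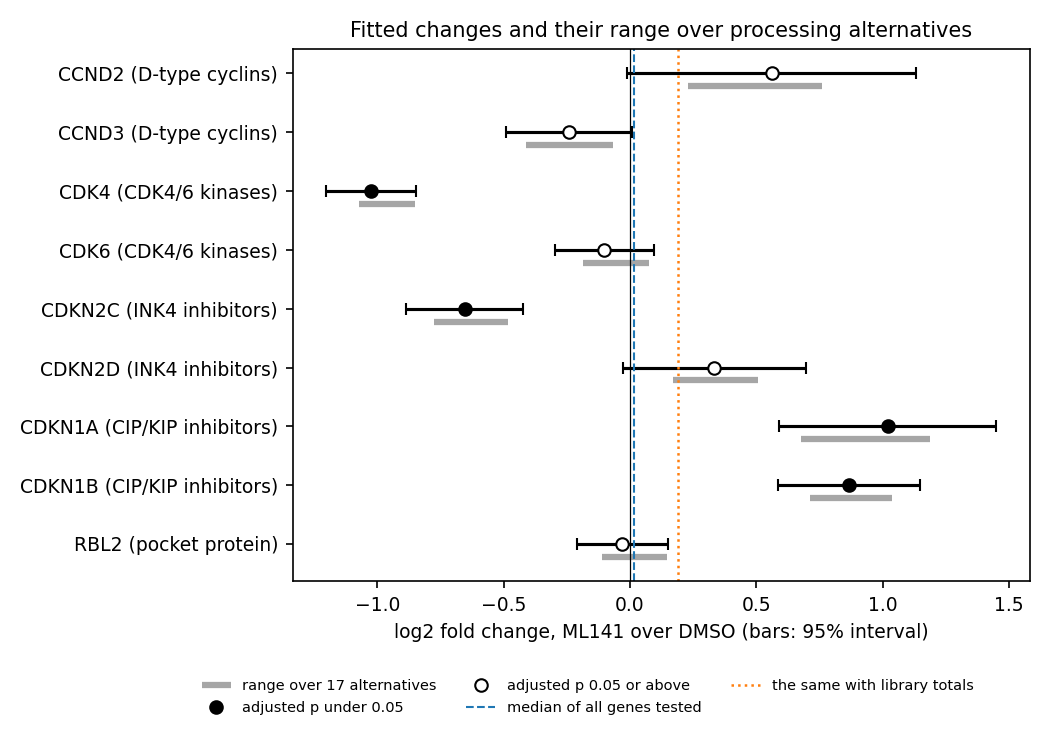
Fitted log2 fold change of ML141 over DMSO (horizontal axis) of the 9 tested genes with its 95% interval (black bars), and the range over 17 alternatives (grey bars). Filled points passed the test. The grey bars of CDK4, CDKN2C, CDKN1A and CDKN1B stay on the same side of 0, whereas those of CDK6 and RBL2 cross it.

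Set against each other inside a library, where scaling cancels, the kinases moved apart. The log2 ratio of CDK6 counts to CDK4 counts was 3.31, 3.32 and 3.13 with ML141 and 2.39, 2.37 and 2.22 with DMSO. This is 9.53 CDK6 counts per CDK4 count with ML141 and 5.03 with DMSO, and the groups did not overlap. These counts are not divided by length, and CDK6 has 11.7 kb of exon against 2.08 kb for CDK4. The ratio also depends on how reads from the bases that CDK4 shares with TSPAN31 were assigned. The log2 ratio of CCND3 to CCND2 counts was 5.20, 5.32 and 5.92 with ML141 and 5.80, 6.37 and 6.57 with DMSO. In this ratio the groups overlapped, and it rests on the low counts of CCND2.

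Among the INK4 genes, CDKN2C, which encodes p18, was the highest. CDKN2C (chromosome 1, 50960745 to 50974633, plus strand) was at 70.1, 70.5 and 88.5 CPM with ML141 and at 112.1, 119.3 and 128.8 CPM with DMSO. Every ML141 library lay below every DMSO library. The log2 fold change was -0.65 (SE 0.106, edgeR adjusted p = 2.92e-04, lower in 3 of 3 ML141 libraries), with a range of -0.77 to -0.48 over the alternatives.

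CDKN2D, which encodes p19 of the INK4 family (chromosome 19, 10566462 to 10569059, minus strand), was at 23.2, 27.1 and 29.1 CPM with ML141 and at 15.7, 21.2 and 25.6 CPM with DMSO. The groups overlapped, at 26.5 ± 3.04 CPM with ML141 and 20.9 ± 4.99 CPM with DMSO (SD, n = 3 each). Its log2 fold change was 0.33 (SE 0.166, edgeR adjusted p = 0.108), with a 95% interval of -0.03 to 0.70. With the replicate block it was 0.35 (adjusted p = 0.0183). It was 0.51 without DMSO replicate 3 (adjusted p = 0.0326) and 0.41 without ML141 replicate 1 (adjusted p = 0.034), but 0.17 without DMSO replicate 1 (adjusted p = 0.364). Inside each library the log2 ratio of CDKN2D to CDKN2C counts was -1.60, -1.38 and -1.60 with ML141 and -2.84, -2.49 and -2.33 with DMSO, so that the INK4 genes stood closer to each other in every ML141 library.

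CDKN2A, which encodes p16 and, in another reading frame, the p53 activator ARF (chromosome 9, 21967753 to 21995301, minus strand), had 0 counts in each of the 6 libraries. A count of 0 allows a level of up to 0.226 to 0.278 CPM with ML141 and up to 0.289 to 0.389 CPM with DMSO, taken as 3 counts per library and covering counting error only. Of 23 genes within 1 Mb, the protein-coding ones and CDKN2B-AS1, 19 had 0 counts in all libraries, as did 9782 of all 26485 entries. These 19 included CDKN2B, the INK4 gene next to CDKN2A, and 16 interferon genes. MTAP, a methionine salvage enzyme gene next to CDKN2A, had 1 count in all libraries together, FOCAD had 2, and HACD4 and KLHL9 had 1 each. The nearest genes past the low-count filter were ACER2, 2.52 Mb away on the side of lower coordinates, and CAAP1, 4.85 Mb away on the other side, which were looked up after these zeros were seen. CAAP1 was at 36.5 CPM with ML141 and at 45.0 CPM with DMSO. Between ACER2 and CAAP1 the table holds 38 genes over 7.39 Mb, of which 32 had no count and the highest had 11 counts over all libraries. The reason for these zeros was not tested.

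The CIP/KIP genes were the members that rose. CDKN1B (chromosome 12, 12715058 to 12722371, plus strand) was at 79.4, 57.8 and 75.6 CPM with ML141 and at 35.0, 39.2 and 41.9 CPM with DMSO. All ML141 libraries lay above the DMSO libraries, replicate 2 by the least. The log2 fold change was 0.87 (SE 0.129, edgeR adjusted p = 1.5e-04, higher in 3 of 3 ML141 libraries), with a range of 0.71 to 1.04 over the alternatives.

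CDKN1A (chromosome 6, 36676460 to 36687339, plus strand), a well-known p53 target, was at 103.2, 56.9 and 57.9 CPM with ML141 and at 35.5, 36.2 and 35.6 CPM with DMSO. The DMSO libraries were nearly level, and ML141 replicate 1 stood far above the other ML141 libraries. The log2 fold change was 1.02 (SE 0.197, edgeR adjusted p = 9.63e-04, higher in 3 of 3 ML141 libraries). Without ML141 replicate 1 it was 0.68 (adjusted p = 1.44e-05). CDKN1C, the remaining CIP/KIP gene, had 0 counts in all libraries.

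The log2 ratio of CDKN1B to CDK4 counts was -0.33, -1.01 and -0.54 with ML141 and -2.62, -2.51 and -2.43 with DMSO. That is 0.647 CDKN1B counts per CDK4 count with ML141 and 0.175 with DMSO. No ML141 library overlapped the DMSO range. Here too the ratio depends on how reads from the bases that CDK4 shares with TSPAN31 were assigned.

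**Figure D3:**
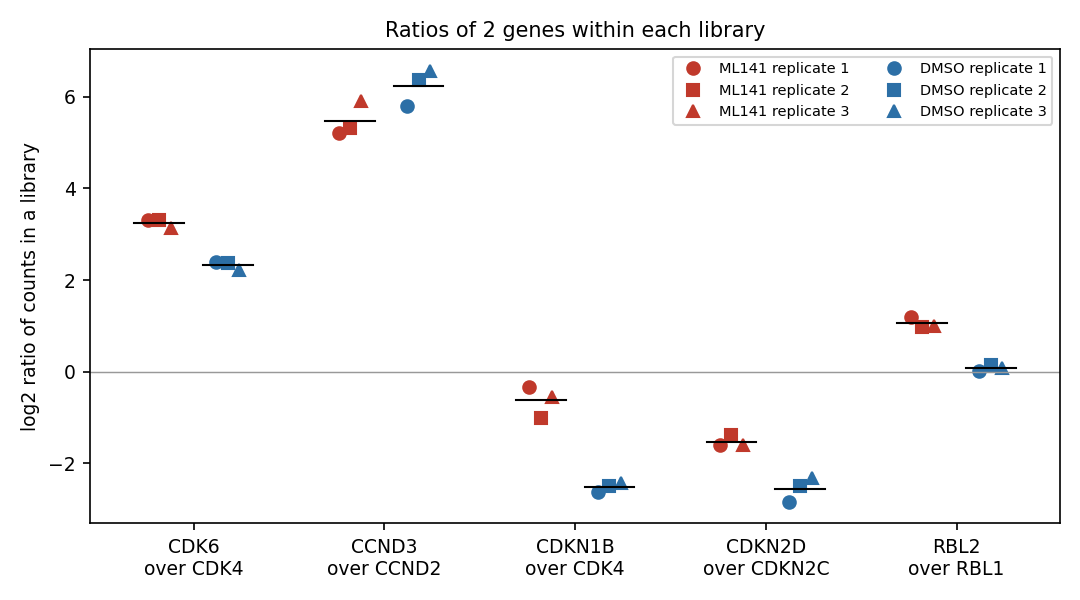
Log2 ratio of the counts of 2 genes within each library (vertical axis) for 5 pairs of genes, with ML141 left of DMSO and the mean as a black line. CDK6 over CDK4 is at 3.13 to 3.32 with ML141 and 2.22 to 2.39 with DMSO, and only CCND3 over CCND2 has overlapping groups among the 5 pairs.

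RBL2 encodes p130, the pocket protein that with E2F4 and the MuvB proteins forms the DREAM complex of resting cells. RBL2 (chromosome 16, 53433977 to 53491649, plus strand) was at 115, 121.4 and 127.1 CPM with ML141 and at 124.6, 130.4 and 116.2 CPM with DMSO. The groups overlapped almost fully. Its log2 fold change was -0.03 (SE 0.083, edgeR adjusted p = 0.783), with a 95% interval of -0.21 to 0.15. Of its exon bases, 12.4% overlap AKTIP on the opposite strand, which was at 10.1 ± 1.04 CPM with ML141 and 7.03 ± 0.46 CPM with DMSO. RB1, the founding pocket protein gene, was at 304 ± 26.7 CPM with ML141 and 308.3 ± 23.8 CPM with DMSO, a log2 difference of -0.02 (SE 0.090, edgeR adjusted p = 0.863). RBL1, which encodes p107, was at 58.5 ± 7.46 CPM with ML141 and 116.9 ± 6.61 CPM with DMSO, 1.99-fold lower (log2 SE 0.105, edgeR adjusted p = 1.06e-05). The log2 ratio of RBL2 to RBL1 counts was 1.2, 0.98 and 0.99 with ML141 and 0.02, 0.15 and 0.08 with DMSO, so RBL2 had 2.08 counts per RBL1 count with ML141 and 1.06 with DMSO.

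To compare levels between genes, CPM were divided by the length of all exon bases of a gene in kb. With ML141, CDK6 was the highest member at 88.5 ± 8.86 CPM per kb (SD, n = 3). CCND3 at 64.0 ± 10.7 and CDK4 at 52.4 ± 3.88 CPM per kb overlapped each other, and CDK6 stood above both by these lengths. CDKN1A at 28.97 ± 10.5, CDKN1B at 26.7 ± 4.34, RBL2 at 24.7 ± 1.24 and CDKN2C at 23.0 ± 3.16 CPM per kb could not be ranked against each other, since their libraries overlapped. CDKN2D at 17.6 ± 2.02 and CCND2 at 0.892 ± 0.264 CPM per kb were below them.

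With DMSO the order was different. CDK4 was the highest at 106.5 ± 2.42 CPM per kb, followed by CDK6 at 94.9 ± 4.47 and CCND3 at 75.6 ± 6.91 CPM per kb, and the libraries of these 3 genes did not overlap. CDKN2C followed at 36.2 ± 2.52 and RBL2 at 25.2 ± 1.46 CPM per kb. CDKN1B at 14.6 ± 1.31, CDKN1A at 14.3 ± 0.14 and CDKN2D at 13.9 ± 3.32 CPM per kb did not differ beyond their spread. CCND2 was at 0.615 ± 0.144 CPM per kb. CCND3 made up 98.6% of the sum of CCND2 and CCND3 with ML141 and 99.2% with DMSO. The order depends on the lengths used, since CCND3 came to 124.6 CPM per kb with DMSO when its longest transcript was taken. Reads from the 51.9% of CDK4 exon bases that overlap TSPAN31 may or may not have been counted. The rank of CDK4 in either group is therefore uncertain.

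**Figure D4:**
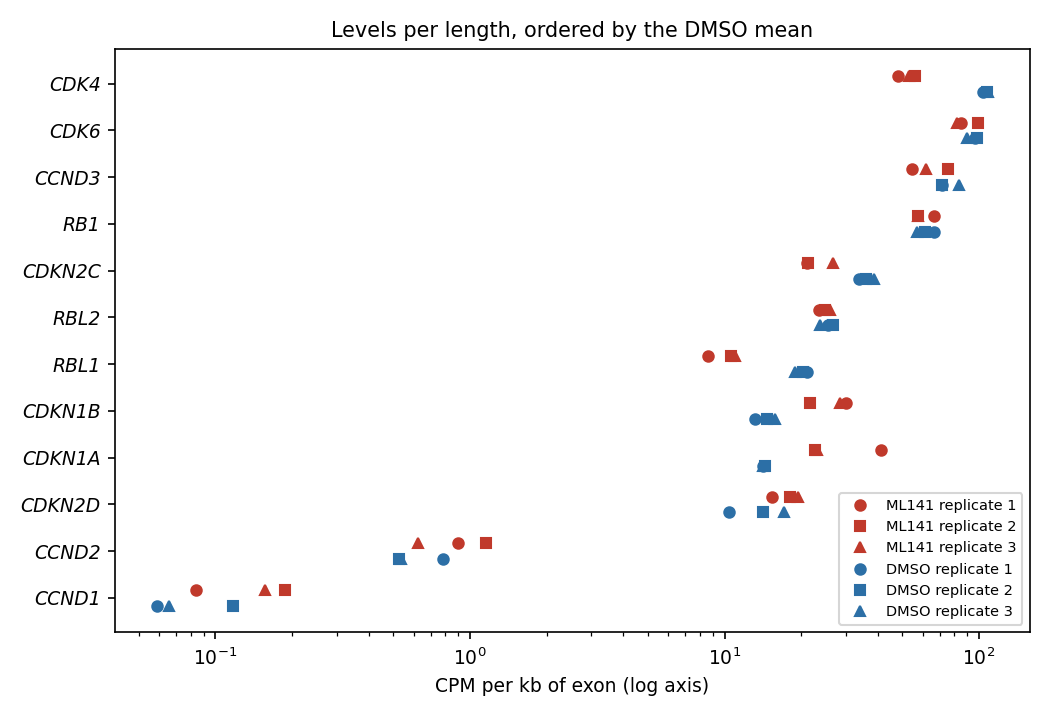
Levels in CPM per kb of exon (log axis) in each library, with genes ordered by the DMSO mean and ML141 drawn above DMSO for each gene. CDK4 lies at 48.2 to 55.9 with ML141 and leads with DMSO at 103.9 to 108.6, whereas CDK6 lies at 82.1 to 98.6 with ML141 and 89.8 to 98.3 with DMSO.

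Summed per length, the kinase transcripts CDK4 and CDK6 were at 140.8 ± 11.9 CPM per kb with ML141 and 201.4 ± 3.62 with DMSO (SD, n = 3 each). CDK6 made up 62.8% ± 1.75 of that sum with ML141 and 47.1% ± 1.59 with DMSO. The kinase sum and these shares depend on how reads from the bases that CDK4 shares with TSPAN31 were assigned. The 4 detected inhibitor genes together were at 107.6, 83.7 and 97.6 CPM per kb with ML141 and at 71.6, 79.2 and 85.8 CPM per kb with DMSO, with overlapping groups. What differed was their make-up, since CDKN1A and CDKN1B held 66.0%, 53.1% and 52.8% of the inhibitor sum with ML141 and 38.2%, 36.8% and 34.9% with DMSO. The inhibitor sum was 69.1% ± 13.6 of the kinase sum with ML141 and 39.2% ± 3.82 with DMSO. These are descriptions of mRNA, and no protein was measured.

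The genes around this module were read from 6 lists, whose counts stand against 54.4% of all genes changed, 26.7% higher and 27.7% lower. The lists were written with earlier results of these data known, so their shares are descriptions and not a test of the pathway. Of 17 genes of pocket proteins, E2F factors and their first targets, 14 were lower and 0 higher, with a median log2 fold change of -1.48 against 0.02 over all genes. CDC25A, a phosphatase that activates CDK2, was at 12.2 ± 2.28 CPM with ML141 and 60.4 ± 4.40 CPM with DMSO. E2F7, an E2F repressor, fell 4.82-fold. RB1, E2F5 and E2F6 did not pass the test.

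Of 10 genes of the MuvB core and other DREAM partners of RBL2, 4 of which are also in the list just described, 2 were higher and 6 lower, with a median of -0.34. The 8 changed genes were 80% of the list, and 5 passed with library totals or without replicate 3 of both groups. LIN37, a MuvB subunit, was at 7.59 ± 0.40 CPM with ML141 and 3.64 ± 0.48 CPM with DMSO, but 65.4% of its exon bases are shared with AD000671.1 on the same strand. DYRK1A, the kinase that promotes DREAM assembly, rose 1.23-fold (edgeR adjusted p = 0.0186), which did not pass once DMSO replicate 3 was left out (adjusted p = 0.0939). TFDP1, the dimer partner of E2F proteins, fell 2.79-fold and RBBP4, a histone-binding MuvB subunit, fell 1.68-fold, where 21.3% of exon bases overlap SYNC on the opposite strand.

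Of 13 genes that act in the turnover of D-type cyclins and CIP/KIP proteins, 2 were higher and 8 lower, with a median of -0.34. The 10 changed genes were 76.9% of the list, and 6 passed without replicate 2 of both groups. SKP2, the ubiquitin ligase subunit that targets p27, was at 66.0 ± 9.11 CPM with ML141 and 268.3 ± 7.31 CPM with DMSO, a log2 difference of -2.02 (SE 0.101, edgeR adjusted p = 7.65e-08). DTL, the adaptor that targets p21 in S phase, was at 51.6 ± 9.88 CPM with ML141 and 263.8 ± 13.4 CPM with DMSO. The mRNA of SKP2 and DTL fell and that of CDKN1B and CDKN1A rose, and a link between these changes was not tested. AMBRA1, an adaptor for the destruction of D-type cyclins, rose 1.26-fold (edgeR adjusted p = 0.00673), and FBXO31, described for cyclin D1, rose 1.30-fold (edgeR adjusted p = 0.00906). The call of FBXO31 was lost without DMSO replicate 2 (adjusted p = 0.0531), and without replicate 3 of both groups AMBRA1 did not pass (adjusted p = 0.0783).

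Of 5 tested genes of CDK activation and folding, 3 were lower and 0 higher, with a median of -0.61. These 3 are 60% of the list, close to the 54.4% of all genes, and 5 passed with the replicate block or without ML141 replicate 1. HSP90AA1 and HSP90AB1, the chaperones to which CDC37 brings CDK4, fell 3.80-fold and 2.55-fold, and both have many processed copies in the genome. Of 20 tested transcription regulators known to act on the members, 10 were higher and 5 lower, with a median of 0.17, so that 75% changed against 54.4% of all genes. KLF6, described as an activator of CDKN1A, was at 134.2 ± 11.5 CPM with ML141 and 57.2 ± 14.4 CPM with DMSO. FOXO1, a factor that activates CDKN1B, rose by 0.58 on the log2 scale. IKZF1, a lymphoid factor that restrains the cell cycle in precursor B cells, fell 1.84-fold, and EZH2, a Polycomb enzyme that acts on CDKN2A, fell 1.71-fold. The list of other D cyclin and CDK inhibitor genes (CCND1, CDKN1C and CDKN2B) had no gene past the low-count filter.

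**Figure D5:**
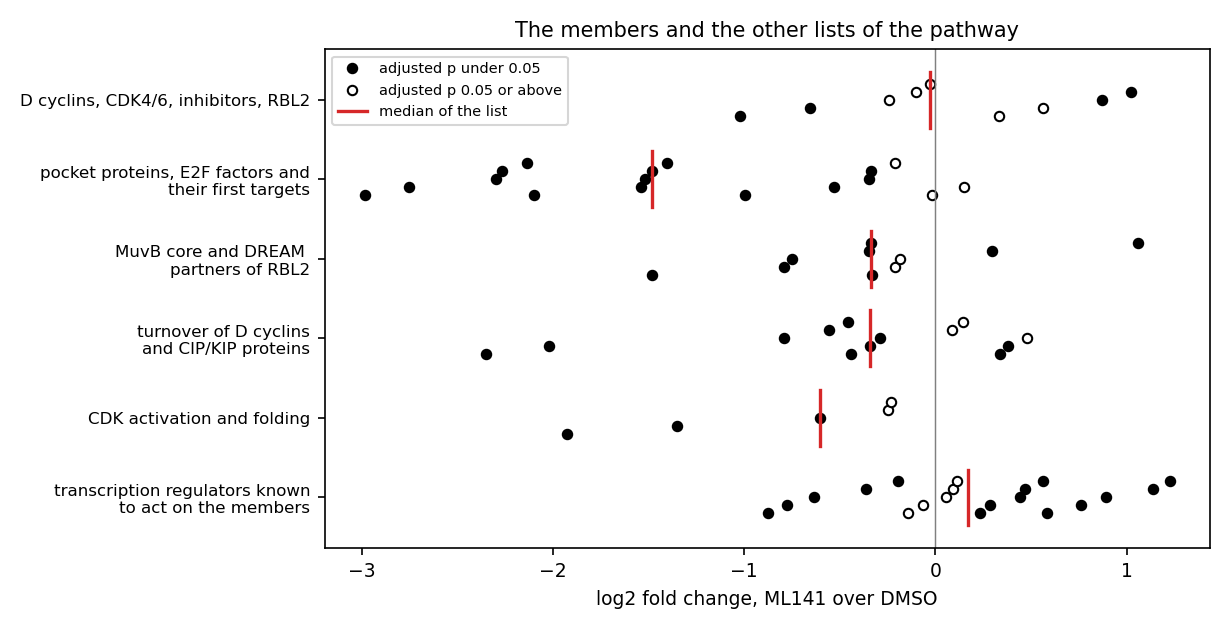
Log2 fold change of ML141 over DMSO (horizontal axis) of each tested gene in the 9 tested members (top) and in 5 lists of the surrounding pathway. Filled points passed the test and red lines are medians, which lie at -0.03 for the members and at -1.48 for pocket proteins, E2F factors and their first targets.

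The genes whose profile lay nearest to that of a member were taken from 9062 genes with at least 5 CPM, by the root mean square difference of log2 CPM relative to the DMSO mean over the 6 libraries. Nearest to CDK4 were SHMT1, a folate enzyme (0.0276), RPA1, a subunit that coats single-stranded DNA (0.0399), and RBBP7, a histone-binding protein (0.0437). Nearest to CDKN1B were CEP112 (0.0729), PAG1, an adaptor of SRC-family kinases (0.0761), and ZNF350 (0.0816). RPA1 was at 222 ± 19.2 CPM with ML141 and 452.7 ± 8.73 CPM with DMSO, and PAG1 was at 357.4 ± 38.4 CPM with ML141 and 194.9 ± 14.1 CPM with DMSO. This likeness is over 6 libraries in 2 groups and is a description only.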

How the data were processed

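RNA of REH cells was sequenced in 6 libraries, 3 with ML141 and 3 with DMSO, grouped by sample title. Libraries were made with the Illumina TruSeq RNA v2 protocol, per the labels' protocols. The submitters' processing notes name featureCounts, DESeq2, Bowtie2, Trimmomatic, Picard and bcl2fastq 2.19, and build hg38. Settings and gene annotation: not given in the sources used here.

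The deposited table holds raw counts per gene symbol. Its score columns, rounded counts that the authors scaled by size factors, were not used. The authors' log2 fold changes and p-values are in the same deposited table. In the authors' deposited table the log2 fold changes of CDK4, CDKN2C, CDKN1A and CDKN1B were -1.03, -0.66, 1.02 and 0.86.

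The members and lists were chosen with earlier results of these data known. Genes were kept with edgeR's filterByExpr (minimum count 10, minimum total 15), scaled with TMM and tested on the whole table with edgeR 4.0.16 in R 4.3.3 (glmQLFit, glmQLFTest), 2-sided, with Benjamini-Hochberg adjustment over 11454 genes. The standard error is the log2 fold change over the square root of F. CPM use TMM-scaled library sizes, and folds are fitted. Library pairs of a group differed by more than sampling noise. Chi-square per degree of freedom was 7.28 to 19.5 with ML141 and 3.02 to 5.59 with DMSO. Positions, exon lengths and overlaps are from GENCODE release 29 basic on GRCh38. Besides all members, the text names, in each list, the genes with the smallest p (up to 2 in each direction), the 3 genes nearest in profile to the member with the smallest p in each direction, CDC42 and overlap partners; further genes in a list are named where a count left few. Alternatives were other scaling, filters, DESeq2 1.42.0, limma-voom (limma 3.58.1), a replicate block and libraries left out. Library names in the labels share a tag between same-numbered ML141 and DMSO samples, and the design gives 3 independent experiments. The numbers were therefore taken to pair the samples in the replicate block. The main test compared the groups without this pairing. Deviations of same-numbered libraries correlated at 0.374, 0.0847 and 0.178, and ML141 replicate 2 correlated more with DMSO replicate 3 (0.291). The fits were tested on simulated data.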

Additional observations from a re-analysis of the deposited data

How the results depend on the processing

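CDK4, CDKN2C, CDKN1A and CDKN1B kept their direction and passed the test in each of 17 alternatives. The number of changed members was 4 to 6, with 4 higher with library totals and 4 higher with no low-count filter. Those 2 settings brought in CCND2, at 0.73 (adjusted p = 0.0342) with library totals and 0.58 (0.0441) with no filter, and CDKN2D, at 0.51 (0.0301) and 0.35 (0.0496). With the replicate block CDKN2D was at 0.35 (0.0183) and CCND3 at -0.25 (0.024), and 5 genes of CDK activation and folding passed. The block raised the changed genes to 6979 and the changed members to 6, and changed no other call among the members, CDC42, the overlap partners, the genes nearest in profile and the list genes named for their p. With 1 library or 1 replicate number left out, CCND2 ranged from 0.23 to 0.76, CCND3 from -0.41 to -0.14, CDKN2D from 0.17 to 0.51 and RBL2 from -0.108 to 0.0126. All changed genes then numbered 4161 to 6567, those higher 1920 to 3195 (1920 without replicate 3 of both groups), MuvB and DREAM genes 5 to 9, turnover genes 6 to 10 and folding genes 3 to 5, of which 5 without ML141 replicate 1. With upper-quartile factors CDK6 was at 0.00287 (adjusted p = 0.982) and RBL2 at 0.0738 (0.46), and with library totals they were at 0.0739 (0.49) and 0.145 (0.139). These settings moved the median of all genes up by 0.10 and 0.17, and the share of changed genes that were higher was 59.5% and 66.1%, against 49.1% with TMM. With library totals 5 MuvB and DREAM genes passed. With the longest transcript as length, CCND3, CDKN2C and CDKN1A were at 124.6, 41.4 and 15.8 CPM per kb with DMSO, against 75.6, 36.2 and 14.3. The cause of these differences was not tested. Depth limits CCND2 and CCND1, which rest on at most 99 and 11 counts in a library.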

Other observations

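CDK7, the kinase that activates CDK4 and CDK6 by phosphorylation, had 1, 1 and 4 counts with ML141 and 2, 2 and 5 counts with DMSO. Its partners in that complex were well detected, with CCNH at 51.4 ± 5.25 CPM with ML141 and 60.4 ± 2.48 CPM with DMSO, and MNAT1 at 51.3 ± 8.23 CPM with ML141 and 60.9 ± 2.17 CPM with DMSO (SD, n = 3 each). The reason for the low CDK7 counts was not tested. VPREB1, a surrogate light chain gene, had 1 count in the ML141 libraries together and 0 counts in the DMSO libraries, whereas its partner gene IGLL1 was at 283.8 ± 18.4 CPM with ML141 and 191.6 ± 27.0 CPM with DMSO. Both were singled out after their values were seen.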
